A study of Mus musculus with 3 samples.

Results

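Macrophages of the fetal mouse thymus were taken from 3 single-cell RNA libraries, and 315 of 19932 kept barcodes were macrophages by a rule on measured counts. A barcode was kept with at least 500 unique molecular identifiers (UMIs, tags that count each captured RNA molecule once), at least 200 detected genes, at most 20% mitochondrial UMIs and at most 5% hemoglobin UMIs. A kept barcode was a macrophage when it held UMIs of at least 4 of 8 genes, C1qa, C1qb, C1qc, Pf4, Aif1, Ms4a7, Lyz2 and Csf1r, and at least 3 UMIs of C1qa, C1qb and C1qc together. Because these values chose the cells, the levels of the 8 genes and every difference between macrophages and other barcodes are given as descriptions, with no test.

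The study compared normal thymic lobes with 2 kinds of hypoplastic, or small, lobes at embryonic day 13 to 13.5, each as 1 droplet library of 3' gene expression made after controlled trypsin digestion of C57BL/6 lobes. The control library was wild type. The Tbx1neo2/neo2 library carried on both alleles a selection cassette within an intron of Tbx1, a hypomorphic design that models the human deletion syndrome of thymic hypoplasia, and the Foxn11089/1089 library carried on both alleles a short in-frame deletion in Foxn1, the transcription factor that thymic epithelium needs. Both alleles are germline, so macrophages carried them too, and how many embryos gave each library is not given in the sources used here.

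Macrophages of the embryo arise from yolk sac and fetal liver progenitors and settle in organs before circulating monocytes of the adult type exist. They depend on the colony stimulating factor 1 receptor, Csf1r, and on the transcription factors PU.1 (Spi1) and Maf. In the fetal thymus they bind, engulf and digest dying cells, and the complement subunits C1qa, C1qb and C1qc, which they secrete, form the recognition molecule C1q that marks such cells.

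The C1q genes carried the rule and lie side by side on the minus strand of mouse chromosome 4 (GRCm38), C1qb at 136880129 to 136886187, C1qc at 136889804 to 136893065 and C1qa at 136895917 to 136898803, so start regions from this cluster are shown. They are RefSeq windows on GRCm38.p6, minus strand, from 250 bases before to 50 bases after the start, at chr4:136886151-136886450 for C1qb and chr4:136892865-136893164 for C1qc. The capitals mark ACTTCC, the reverse complement of GGAAGT, a core to which ETS proteins such as PU.1 can bind, found by a search of both strands.
C1qb: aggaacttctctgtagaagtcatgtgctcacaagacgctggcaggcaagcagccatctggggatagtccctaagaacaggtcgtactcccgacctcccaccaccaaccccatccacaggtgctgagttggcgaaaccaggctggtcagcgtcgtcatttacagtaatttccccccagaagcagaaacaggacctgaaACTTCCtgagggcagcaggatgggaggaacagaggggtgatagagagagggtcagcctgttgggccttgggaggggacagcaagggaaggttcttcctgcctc
C1qc: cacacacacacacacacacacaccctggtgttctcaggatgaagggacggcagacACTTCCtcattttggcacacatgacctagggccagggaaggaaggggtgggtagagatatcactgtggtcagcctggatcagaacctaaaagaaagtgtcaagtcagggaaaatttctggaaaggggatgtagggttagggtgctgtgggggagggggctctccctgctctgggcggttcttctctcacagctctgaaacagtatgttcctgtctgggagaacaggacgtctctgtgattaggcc
The letters stood 53 bases before the RefSeq start of C1qb and 195 bases before that of C1qc. These starts differ from the upper gene coordinates given above, from which the distances would be others. No usable window was found for C1qa. The same 6 letters on either strand occurred in 7809 of 32851 windows of 300 bases (23.8%), so they are common, and no binding was measured here.

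The libraries held 6410 barcodes (control), 5759 (Tbx1neo2/neo2) and 12447 (Foxn11089/1089), with 82936619 to 204655055 UMIs in total. The targeted genes do not check the labels. Levels are CPM, UMIs of a gene summed over a set of barcodes per 1000000 UMIs of that set. Tbx1 RNA was no scarcer under the Tbx1neo2/neo2 label, with 5.06 CPM in its kept barcodes against 1.46 CPM in the control and 6.36 CPM in the Foxn11089/1089 library, so this library is named by its label throughout and every direction below is drawn between libraries as labelled. The Foxn1 deletion leaves the counted transcript in place, and Foxn1 stood at 40.3 CPM in the control, 36.7 in the library labelled Tbx1neo2/neo2 and 90.4 in the Foxn11089/1089 library. Pairs of libraries shared 63 barcodes in all, and no barcode was a macrophage in a pair of libraries.

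The macrophages were 82 barcodes of the control, 93 of the library labelled Tbx1neo2/neo2 and 140 of the Foxn11089/1089 library. Their depth was in each library a mixture of shallow and deep barcodes. The median was 7247 UMIs in the control (range 530 to 25291), 4940 in the library labelled Tbx1neo2/neo2 (604 to 304879) and 14012 in the Foxn11089/1089 library (521 to 80399). Macrophages under 2000 UMIs made up 40.2%, 26.9% and 31.4% in that order, against 10.6%, 30.3% and 15.4% of all kept barcodes. The single deepest macrophage gave 14.7% of all macrophage UMIs of the library labelled Tbx1neo2/neo2, against 4.23% in the control and 3.41% in the Foxn11089/1089 library.

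Genes outside the rule gave the cells the profile of macrophages. Of 12 further macrophage markers, 12 were above all other kept barcodes in the control, 12 in the library labelled Tbx1neo2/neo2 and 11 in the Foxn11089/1089 library. Their summed level was 9312, 7127 and 5659 CPM in macrophages, against 555, 227 and 387 in all other kept barcodes. Among the latter, 49, 11 and 71 barcodes held at least 3 dendritic markers and fewer of any other class. The same macrophage list stood at 4500, 3684 and 2995 CPM in these dendritic barcodes, so they share part of the profile. Of 10 dendritic cell markers, Flt3, Xcr1, Clec9a, Cd209a and Ccr7 had no UMI in a macrophage of any library, and the list summed to 61.9, 115 and 39.9 CPM, against 323, 167 and 83.6 in all other kept barcodes. At least 3 dendritic markers were found in 1 macrophage of each library. The 13 monocyte genes, of which Ly6c2, Chil3 and F10 had no UMI, summed to 281, 386 and 403 CPM, against 784, 915 and 548 in all other kept barcodes. Mast cell and basophil markers summed to 0, 4 and 7 UMIs, and neutrophil markers to 6, 16 and 23 UMIs, or 10.04, 7.69 and 9.76 CPM against 265, 155 and 297.

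Epithelial and mesenchymal RNA was present in the same barcodes. The 10 epithelial markers summed to 661 CPM in control macrophages, 1875 in the library labelled Tbx1neo2/neo2 and 797 in the Foxn11089/1089 library, against 2613, 2050 and 2011 in all other kept barcodes, and none of the 10 was at 0. The 10 mesenchymal markers summed to 611, 579 and 1419 CPM, against 1660, 4334 and 2699. Another cell class here means thymocyte, epithelial, mesenchymal or endothelial, and dendritic markers were not counted. UMIs of at least 3 markers of another cell class were found in 16 control macrophages (19.5%). The same held for 27 macrophages of the library labelled Tbx1neo2/neo2 (29.0%) and 50 of the Foxn11089/1089 library (35.7%). These barcodes were deep, with medians of 12999, 39903 and 30672 UMIs against 1944, 2897 and 2110 for the other macrophages. The source of this RNA was not tested.

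Part of the macrophages lay at the threshold. Exactly 4 rule genes were detected in 13 control macrophages, 10 of the library labelled Tbx1neo2/neo2 and 20 of the Foxn11089/1089 library, whereas all 8 were detected in 29, 49 and 55. Exactly 3 C1q UMIs were held by 9, 4 and 9 macrophages. Just outside were 7, 1 and 11 barcodes with 3 rule genes and enough C1q UMIs, and 6, 2 and 4 barcodes with enough rule genes and 2 C1q UMIs. The median macrophage held 22 C1q UMIs in the control, 36 in the library labelled Tbx1neo2/neo2 and 38.5 in the Foxn11089/1089 library. Per 10000 UMIs of the cell, the 8 genes gave a median of 109, 117 and 100 UMIs. Fewer than 20 per 10000 were found in 2, 3 and 13 macrophages, and all of these were deep barcodes. The deepest control macrophage, for example, had 25291 UMIs but 3 C1q UMIs, beside 9 epithelial markers.

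**Figure D1:**
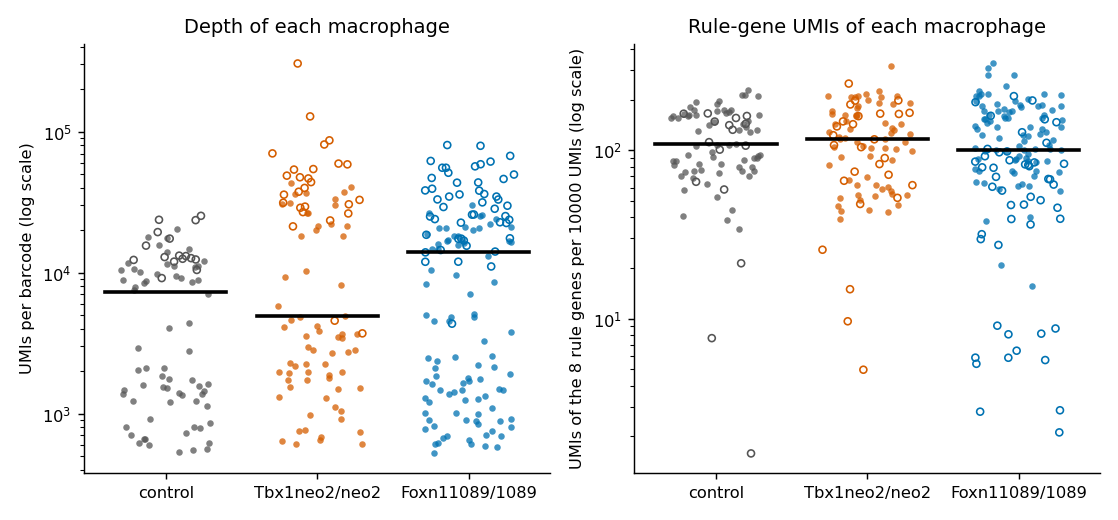
Each point is 1 macrophage of the control, Tbx1neo2/neo2 or Foxn11089/1089 library, with UMIs per barcode on the left and UMIs of the 8 rule genes per 10000 UMIs on the right, both on log scales. Open circles hold at least 3 markers of another cell class and black bars are medians (7247, 4940 and 14012 UMIs on the left). Shallow and deep barcodes are both present in every library, with some of middle depth between them, and most open circles are deep.

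Macrophages took a similar share of the kept barcodes in the 3 libraries. They were 1.48% of control barcodes (exact 95% interval 1.18 to 1.83), 1.81% in the library labelled Tbx1neo2/neo2 (1.47 to 2.22) and 1.51% in the Foxn11089/1089 library (1.28 to 1.78). The ratio to the control was 1.23 (0.902 to 1.67) for the library labelled Tbx1neo2/neo2 and 1.02 (0.775 to 1.36) for the Foxn11089/1089 library, and both intervals include 1. Such intervals cover counting error only. With 1 library per genotype there is no replicate check, no test was run and no p-value is given for any difference between genotypes. The first ratio depended on depth: with a minimum of 2000 UMIs per barcode it was 1.92 (1.31 to 2.84), and with at least 10 C1q UMIs per macrophage 1.60 (1.09 to 2.36).

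The 8 rule genes were left out of a ranking of genes by their ratio over all other kept barcodes. Trem2, a lipid and apoptotic cell sensor, led the genes that remained, at 311 CPM in the control, 462 in the library labelled Tbx1neo2/neo2 and 408 in the Foxn11089/1089 library. Its lowest ratio over all other kept barcodes among the libraries was 1677, followed by 1466 for Fcrls, a receptor-like scavenger gene of resident macrophages, and 1293 for Fcna, a ficolin of innate immunity. Fcna rested on few cells, with 66.7% of its control UMIs and 77.2% of those of the Foxn11089/1089 library in 1 macrophage. Its rank also depended on a floor of 3 counts for all other kept barcodes, which stood at 0.0129 CPM in the control. The next were Ccl12 (1173), a monocyte-attracting chemokine, Folr2 (1098), the folate receptor of resident macrophages, and C3ar1 (1033), the receptor for the complement fragment C3a. The other 14 of the leading 20 included Mrc1 (681), the mannose receptor, Adgre1 (621), which encodes F4/80, F13a1 (412), a transglutaminase, and P2ry12 (280), a nucleotide receptor best known in microglia. Of 5862 genes ranked, 160 were at least 10 times and 42 at least 100 times as high in macrophages in every library. Since the cells were chosen by such genes, the ratios describe the cells and show how little macrophage RNA lay in the other barcodes.

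RNAs of C1q and of apolipoprotein E were abundant in macrophages and scarce elsewhere. C1qb stood at 3505 CPM in control macrophages, 2379 in the library labelled Tbx1neo2/neo2 and 2104 in the Foxn11089/1089 library, against 0.582, 0.774 and 1.15 in all other kept barcodes. C1qa was at 1997, 1758 and 1873 CPM and C1qc at 2598, 1965 and 1625 CPM. C1qa was nearly level across the libraries, whereas C1qb and C1qc were highest in the control. Pf4, platelet factor 4, which embryonic macrophages also make, was at 1016 CPM in the control, 909 in the library labelled Tbx1neo2/neo2 and 387 in the Foxn11089/1089 library, where 55.7% of macrophages held a UMI against 68.3% in the control. Apoe, a lipid carrier, stood at 7524, 11141 and 10478 CPM, with 48.2, 52.3 and 43.5 CPM in all other kept barcodes.

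**Figure D2:**
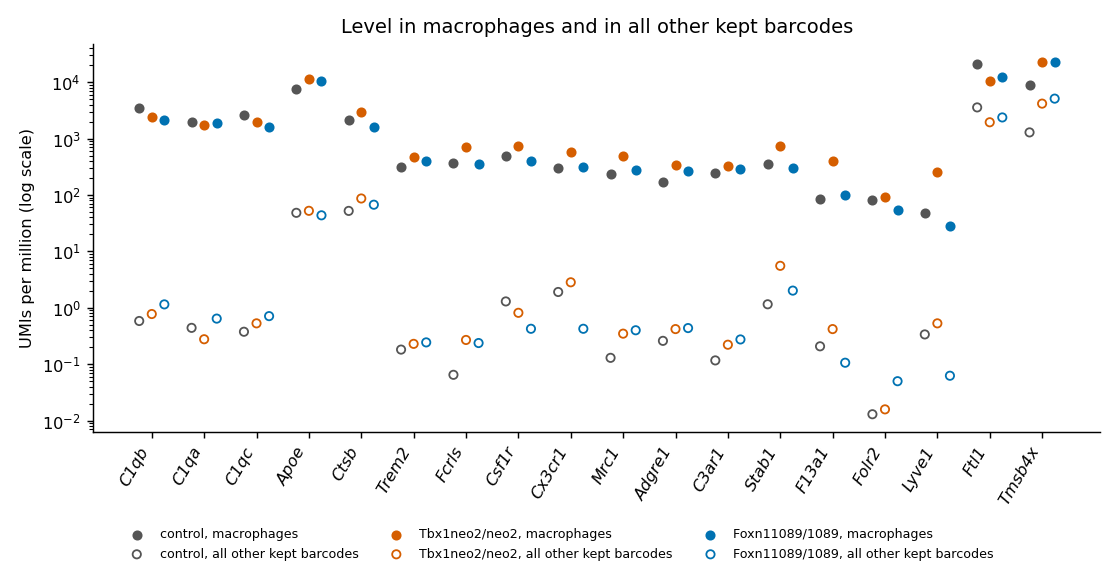
CPM (log scale) of 18 genes in macrophages (filled) and in all other kept barcodes (open), in the control, Tbx1neo2/neo2 and Foxn11089/1089 libraries. Macrophage genes lie orders of magnitude above the open circles, for example C1qb at 2104 to 3505 against 0.582 to 1.15, while the level of Ftl1 and Tmsb4x moves between libraries in the same direction in both kinds of barcode.

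Genotypes were then compared within macrophages, each against the same control library, so the 2 comparisons share its counts. A gene was called when its log2 ratio of CPM over the control was at least 1 in size and its 95% counting interval did not include 0, and only genes that had 30 or more UMIs over the macrophages of the 2 libraries were tested. In the library labelled Tbx1neo2/neo2, 1147 of 7718 tested genes were called higher (14.9%) and 219 lower (2.84%). In the Foxn11089/1089 library, 1228 of 8001 were called higher (15.3%) and 250 lower (3.12%). The median log2 ratio of all tested genes was 0.32 and 0.29, and a ratio is read against that shift. With median-of-ratios scaling, which removes the shift, the counts were 528 higher and 560 lower, and 659 higher and 544 lower. TMM scaling gave 612 and 467, and 731 and 488. Counts of called genes within a list are read against 14.9% higher and 2.84% lower for the first comparison and 15.3% and 3.12% for the second.

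Many calls were not particular to macrophages. Of the genes called higher, 441 (38.5%) in the library labelled Tbx1neo2/neo2 and 484 (39.4%) in the Foxn11089/1089 library were also past a log2 ratio of 1 on the same side in all other kept barcodes, as were 103 (47.0%) and 146 (58.4%) of those called lower. In the library labelled Tbx1neo2/neo2, 104 genes called higher had at least 50% of their macrophage UMIs in 1 barcode. The number of macrophages with a UMI, or the change in all other kept barcodes, is therefore given beside many of the ratios. The mitochondrial share of UMIs also moved with the comparisons, with medians of 2.35% in control macrophages, 6.66% in the library labelled Tbx1neo2/neo2 and 5.18% in the Foxn11089/1089 library, against 2.64%, 5.93% and 5.45% of all kept barcodes, and its part in the ratios was not tested.

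Genes for taking up apoptotic cells were higher as a list in the library labelled Tbx1neo2/neo2. All 16 tested of 21 listed genes were above the control there, 8 were called higher and 0 lower, and the list median was 0.89 against 0.32 for all tested genes. With median-of-ratios scaling the median was 0.57. In the Foxn11089/1089 library 2 of 17 were called higher and 0 lower, with a median of 0.19 against 0.29, which became -0.10 with that scaling. The 21 genes summed to 1374 CPM in control macrophages, 2628 in the library labelled Tbx1neo2/neo2 and 1561 in the Foxn11089/1089 library. All other kept barcodes were at 374, 638 and 467 CPM, so the list was not higher in macrophages alone.

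Gas6, the ligand that bridges phosphatidylserine on dying cells to the receptors Axl and Mertk, was at 112 CPM in the control, 330 in the library labelled Tbx1neo2/neo2 and 124 in the Foxn11089/1089 library. Its UMIs were spread over 27, 51 and 66 macrophages. The log2 ratio was 1.55 (1.19 to 1.94) in the library labelled Tbx1neo2/neo2, where all other kept barcodes changed by 0.62, and 0.14 (-0.25 to 0.55) in the Foxn11089/1089 library. Ligand and receptors were called on the same side. Axl was at 30.1, 84.6 and 41.2 CPM (log2 ratios 1.49 and 0.45), and Mertk at 20.1, 44.7 and 29.3 CPM (1.15 and 0.54), while in all other kept barcodes of the library labelled Tbx1neo2/neo2 both were 2.01 above the control. Stab1, a scavenger receptor that also binds phosphatidylserine, was at 346, 747 and 295 CPM, and its log2 ratios were 1.11 (0.90 to 1.32) and -0.23 (-0.46 to -0.0030). Abca1, the cholesterol exporter that engulfing cells use, was at 189, 390 and 281 CPM (1.04 and 0.57). The calls of Gas6 and Axl held in all 16 alternative settings tried for them. Those of Mertk, Stab1 and Abca1 each held in 12 of 16 and were lost with median-of-ratios scaling, at 0.84, 0.79 and 0.73, and with TMM scaling. Such counts, here and below, include gene minimums of 100, 10 and 1 UMI where the gene passes them, and these cannot change a ratio.

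Of the endocytic receptors, 4 of 13 tested were called higher and 1 lower in the library labelled Tbx1neo2/neo2, against 14.9% and 2.84% of all tested genes, and the list median was 0.60 (0.28 with median-of-ratios scaling). In the Foxn11089/1089 library 0 of 13 were called in either direction, and the median was -0.11 (-0.40 with that scaling). Mrc1 was at 238 CPM in the control, 489 in the library labelled Tbx1neo2/neo2 and 272 in the Foxn11089/1089 library (log2 ratios 1.04 and 0.19, the first down to 0.43 among the alternatives and called in 10 of 16), and Colec12, a collectin, at 36.8, 93.7 and 34.8 CPM in 15, 35 and 38 macrophages (1.35 and -0.08), with 2.02 and 0.92 in all other kept barcodes. Fcgr1, the high affinity receptor for IgG, was at 132, 169 and 100 CPM and was not called. Clec4n, which encodes dectin-2, was at 169, 74.5 and 113 CPM, but 47.5% of its control UMIs lay in 1 macrophage, and the log2 ratio of -1.18 in the library labelled Tbx1neo2/neo2 became 0.12 without the barcodes holding markers of another class.

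Of the lysosomal genes that digest engulfed material, 6 of 24 tested were called higher and 0 lower in the library labelled Tbx1neo2/neo2, against 14.9% and 2.84% of all tested genes. The list median there was 0.39 against 0.32 for all tested genes, or 0.07 with median-of-ratios scaling, so the list as a whole lay near the background. In the Foxn11089/1089 library 0 were called (median 0.03, or -0.26 with median-of-ratios scaling). Lgmn, the endopeptidase legumain, was at 551 CPM in the control, 1366 in the library labelled Tbx1neo2/neo2 and 802 in the Foxn11089/1089 library, with log2 ratios of 1.31 (1.15 to 1.48) and 0.54 (0.37 to 0.72), and all other kept barcodes were at 1.06 and 2.16. Ctsd and Ctsl, lysosomal proteases, were at 936, 1976 and 1138 CPM and at 254, 645 and 484 CPM. Their log2 ratios in the library labelled Tbx1neo2/neo2 were 1.08 (0.76 with median-of-ratios scaling) and 1.34, against 0.69 and 0.52 in all other kept barcodes. Ctsb, another cathepsin, was not called, at 2168, 2905 and 1605 CPM, nor was Lamp1, a protein of the lysosomal membrane, at 663, 1039 and 699 CPM. Lipa, the acid lipase of lysosomes, was at 63.6, 158 and 98.9 CPM in 21, 48 and 70 macrophages (1.31 and 0.64), and Npc1, which moves cholesterol out of lysosomes, at 21.8, 57.2 and 39.5 CPM in 12, 32 and 47 (1.39 and 0.86). These 2 and Abca1 were the 3 of 13 lipid-handling genes called higher there, and 0 of 13 were called in the Foxn11089/1089 library.

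Markers of fetal resident macrophages had a list median of 1.29 in the library labelled Tbx1neo2/neo2, where 6 of 8 tested genes were called higher, against 0.19 in the Foxn11089/1089 library (-0.10 with median-of-ratios scaling), where 0 of 9 were called. The list summed to 1446, 2950 and 1675 CPM in macrophages of the control, Tbx1neo2/neo2 and Foxn11089/1089 libraries, and to 175, 291 and 294 CPM in all other kept barcodes. The level of F13a1 was 85.4 CPM in the control, 395 in the library labelled Tbx1neo2/neo2 and 98.9 in the Foxn11089/1089 library, from 20, 36 and 26 macrophages. Its log2 ratios were 2.21 (1.80 to 2.65) and 0.21 (-0.23 to 0.68). Lyve1, a hyaluronan receptor, was at 48.5, 251 and 28.4 CPM, with log2 ratios of 2.37 (1.83 to 2.96) and -0.77 (-1.42 to -0.09). Lyve1 came from 11, 19 and 9 macrophages, and 1 macrophage held 34.2% to 38.8% of the UMIs in each library, so few cells set its level. Both genes depended on deep barcodes: between 2000 and 30000 UMIs per macrophage the log2 ratios in the library labelled Tbx1neo2/neo2 were 0.55 for F13a1 and 0.60 for Lyve1, and F13a1 was at 0.53 as a mean over cells.

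Dab2, an endocytic adaptor, was carried by more macrophages than F13a1 or Lyve1. It was at 258 CPM in the control, 797 in the library labelled Tbx1neo2/neo2 and 334 in the Foxn11089/1089 library, in 41, 69 and 96 macrophages. The log2 ratio was 1.63 (1.39 to 1.88) in the library labelled Tbx1neo2/neo2 and stayed between 1.31 and 1.83 under 16 alternatives, while all other kept barcodes changed by 3.01. Adgre1 was at 169, 341 and 271 CPM (1.01 and 0.68), and the first value was 0.70 with median-of-ratios scaling. Cx3cr1, the fractalkine receptor, was at 295, 571 and 319 CPM (0.96 and 0.12). P2ry12 was not called, at 41.9, 63.9 and 31.4 CPM. Folr2 was not called in either comparison, at 82.0, 93.2 and 54.8 CPM, so the resident markers did not move as a block.

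**Figure D3:**
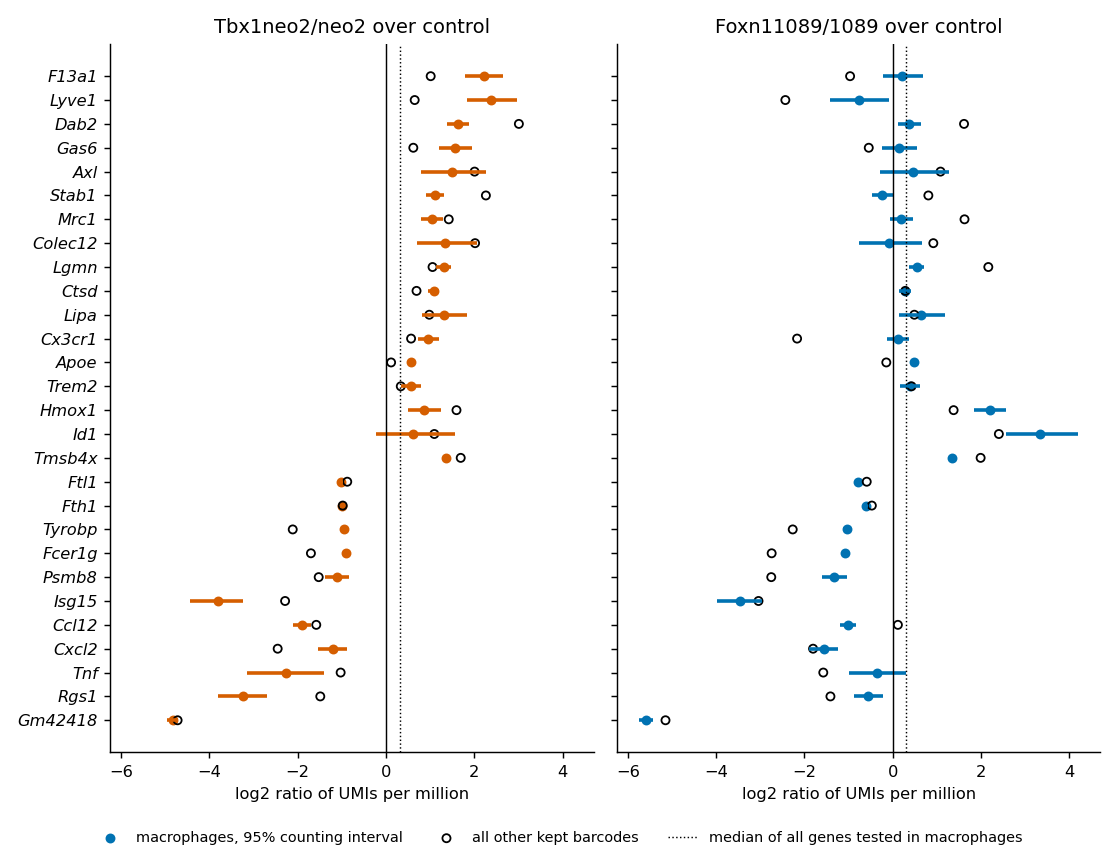
Log2 ratio over the control of 28 genes in macrophages (filled points with 95% counting intervals) and in all other kept barcodes (open circles), for Tbx1neo2/neo2 on the left and Foxn11089/1089 on the right. The dotted line is the median of all tested genes (0.32 and 0.29). F13a1, Lyve1, Dab2 and Gas6 lie to the right on the left panel only, at 2.21, 2.37, 1.63 and 1.55, while Isg15 and Gm42418 lie to the left in both.

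Iron and heme genes included 1 large difference of the Foxn11089/1089 library. Hmox1, heme oxygenase 1, which opens the heme ring after red cells or their debris are engulfed, was at 114 CPM in the control, 207 in the library labelled Tbx1neo2/neo2 and 521 in the Foxn11089/1089 library. It was carried by 22, 56 and 84 macrophages, and 13.4% of the UMIs of the Foxn11089/1089 library lay in 1 of them. The log2 ratio there was 2.19 (1.84 to 2.57), between 1.90 and 3.30 under 16 alternatives, against 1.38 in all other kept barcodes, and it was 0.86 (0.49 to 1.25) in the library labelled Tbx1neo2/neo2. Hmox1 was the only 1 of 13 tested genes of this list called in the Foxn11089/1089 library. Hemoglobin RNA was also higher in the Foxn11089/1089 library. The 10 erythroid markers, hemoglobin genes among them, summed to 320, 379 and 1398 CPM in macrophages and to 731, 357 and 1588 CPM in all other kept barcodes. In the library labelled Tbx1neo2/neo2 1 of 5 tested was called higher and 0 lower, and in the Foxn11089/1089 library 5 of 6 were called higher. Hba-a1 was at 51.9, 30.8 and 178 CPM in macrophages and at 40.0, 38.4 and 216 CPM in all other kept barcodes. The part of hemoglobin RNA in the Hmox1 difference was not tested.

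In the library labelled Tbx1neo2/neo2 4 of 13 heme and iron genes were called higher and 1 lower. Slc40a1, the iron exporter ferroportin, was at 87.0 CPM in the control, 184 there and 135 in the Foxn11089/1089 library (log2 ratios 1.08, or 0.77 with median-of-ratios scaling, and 0.64). Slco2b1, an organic anion transporter, was at 30.1, 70.2 and 28.4 CPM in 12, 41 and 38 macrophages (1.22 and -0.08). The ferritin light chain Ftl1 was lower, at 21175, 10507 and 12209 CPM (-1.01, called in 8 of 16 alternatives, and -0.79), and the heavy chain Fth1 was at 11115, 5566 and 7308 CPM (-0.998 and -0.60). All other kept barcodes had log2 ratios of similar size for Ftl1 (-0.87 and -0.59) and Fth1 (-0.98 and -0.47), and whether a common cause lay behind these values was not tested.

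The lineage factors Spi1 and Irf8 were not among the called genes. Spi1 was at 382 CPM in the control, 318 in the library labelled Tbx1neo2/neo2 and 267 in the Foxn11089/1089 library, and Irf8 was at 141, 196 and 156 CPM, and neither was called. Of 21 tested factors, 2 were called higher and 0 lower in the library labelled Tbx1neo2/neo2, and 3 higher and 2 lower in the Foxn11089/1089 library. Id1, an inhibitor of helix-loop-helix factors, was at 23.4, 36.0 and 235 CPM, carried by 12, 13 and 56 macrophages, a log2 ratio of 3.32 (2.57 to 4.21) in the Foxn11089/1089 library, where all other kept barcodes changed by 2.40. Id3, of the same family, was at 114, 99.0 and 345 CPM, a log2 ratio of 1.60 there that became -0.07 without the barcodes holding markers of another class. Klf4, a zinc finger factor, was at 11.7, 27.9 and 37.8 CPM (1.25 and 1.69), but only 3 control macrophages held it. Lower in the Foxn11089/1089 library were Fli1, an ETS factor, at 112, 78.3 and 36.5 CPM (-0.52 and -1.62), and Bhlhe41, a repressor of the circadian family, at 48.5, 32.7 and 10.6 CPM (-0.57 and -2.19). Without the barcodes holding markers of another class, Fli1 stood at -0.96 and Bhlhe41 at -0.80 there.

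The list for Csf1r signalling also holds receptor adaptors that are not specific to Csf1r, and signalling itself was not measured. Of its 12 tested genes, 0 were called in the library labelled Tbx1neo2/neo2, where 8 were above the control and the median was 0.06 (-0.25 with median-of-ratios scaling). In the Foxn11089/1089 library 3 were called lower (median -0.53). The adaptor Tyrobp was at 2841 CPM in the control, 1481 in the library labelled Tbx1neo2/neo2 and 1382 in the Foxn11089/1089 library (log2 ratios -0.94 and -1.04), and the adaptor Fcer1g at 3679, 1981 and 1748 CPM (-0.89 and -1.07). All other kept barcodes were lower by more, with log2 ratios of -2.11 and -2.27 for Tyrobp and -1.70 and -2.74 for Fcer1g. The call of Tyrobp in the Foxn11089/1089 library held in 10 of 16 alternatives and that of Fcer1g in 13. Csf1r itself, a rule gene, was at 497, 742 and 403 CPM. The ligands were almost absent from macrophages: Csf1 was at 0, 5.77 and 2.97 CPM and Il34 at 0, 0.961 and 1.27 CPM.

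Of the complement genes outside the rule, 1 of 6 tested was called higher and 2 lower in the library labelled Tbx1neo2/neo2, and 0 of 6 were called in the Foxn11089/1089 library. C3ar1 was at 243, 325 and 283 CPM and C5ar1, the receptor for C5a, at 83.7, 119 and 114 CPM, neither of which was called. Properdin, Cfp, which stabilises the alternative pathway, was at 53.6 CPM in the control, 24.0 in the library labelled Tbx1neo2/neo2 and 35.2 in the Foxn11089/1089 library (-1.16, called in 11 of 15 alternatives, and -0.60), and C3, the central component, was at 26.8, 6.73 and 19.1 CPM in 10, 7 and 20 macrophages (-1.99 and -0.49).

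Inflammatory chemokines were lower in the library labelled Tbx1neo2/neo2, where 5 of 13 tested genes were called lower and 1 higher and the list median was -0.81. In the Foxn11089/1089 library 3 of 14 were called lower and 2 higher, with a median of -0.42. Ccl12 was at 666 CPM in the control, 178 in the library labelled Tbx1neo2/neo2 and 329 in the Foxn11089/1089 library, in 36, 39 and 60 macrophages. Its log2 ratios were -1.90 (-2.11 to -1.69) and -1.02 (-1.19 to -0.84), and the second was called in 9 of 16 alternatives and came down to -0.07. Cxcl2, which attracts neutrophils, was at 226, 98.0 and 76.4 CPM (-1.21 and -1.56, or -0.67 and -0.75 without the barcodes holding markers of another class), from 18, 11 and 20 macrophages. Cxcl10, an interferon-induced chemokine, was at 489, 174 and 340 CPM, with 35.5% to 53.7% of the UMIs in 1 macrophage of each library. Ccl4 was at 370, 131 and 245 CPM, and its log2 ratio of -1.501 in the library labelled Tbx1neo2/neo2 was 0.01 between 2000 and 30000 UMIs per macrophage. Ccl7 went the other way, at 20.1, 57.2 and 48.4 CPM (1.51 and 1.27, or 0.29 and 0.24 as a mean over cells). Tnf, a cytokine of activated macrophages, was at 48.5, 10.1 and 37.8 CPM in 14, 11 and 24 macrophages (-2.27 and -0.36), with -1.02 and -1.57 in all other kept barcodes.

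Interferon-induced genes were lower in both libraries labelled as mutants, with 5 of 11 tested genes called lower in the library labelled Tbx1neo2/neo2 (median -0.81), 6 of 11 in the Foxn11089/1089 library (median -1.18) and 0 higher in either. The 14 listed genes summed to 2121, 1198 and 1175 CPM in macrophages of the control, Tbx1neo2/neo2 and Foxn11089/1089 libraries. All other kept barcodes were at 2423, 1276 and 971 CPM, so the list was lower there too. Isg15, a ubiquitin-like protein, was at 209 CPM in the control, 14.9 in the library labelled Tbx1neo2/neo2 and 19.1 in the Foxn11089/1089 library, from 22, 13 and 16 macrophages. In each library 2 macrophages held most of its UMIs, 58.4%, 54.8% and 62.2%. Its log2 ratios were -3.81 (-4.43 to -3.23) and -3.45 (-3.98 to -2.95), and in all other kept barcodes -2.28 and -3.04. Genes that interferon induces most steeply also rested on very few control cells. The 5 genes Ifit1, Ifit2, Ifit3, Rsad2 and Usp18 summed to 97 UMIs in 7 control macrophages, and 2 of these, each with all 5 genes, held 50 and 41 UMIs. The same genes gave 17 UMIs in 13 macrophages of the library labelled Tbx1neo2/neo2 and 28 UMIs in 19 of the Foxn11089/1089 library.

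The immunoproteasome subunits and the peptide transporter were lower as well. Psmb8 was at 293 CPM in the control, 136 in the library labelled Tbx1neo2/neo2 and 117 in the Foxn11089/1089 library (-1.11 and -1.32), Psmb9 at 122, 51.4 and 47.5 CPM (-1.25 and -1.36) and Tap1 at 46.9, 17.3 and 13.2 CPM (-1.44 and -1.83). All other kept barcodes had log2 ratios of -1.52 and -2.75 for Psmb8 and -0.95 and -2.31 for Psmb9. B2m, the invariant chain of class I molecules, was not called, at 700, 851 and 840 CPM. Class II genes were sparse: H2-Ab1 was at 25.1, 52.9 and 15.7 CPM in 6, 9 and 13 macrophages, and 72.7% of its UMIs in the library labelled Tbx1neo2/neo2 lay in 1 of them. Of the antigen presentation list 2 of 12 tested genes were called higher and 4 lower in the library labelled Tbx1neo2/neo2, against 14.9% and 2.84% of all tested genes. In the Foxn11089/1089 library 0 of 10 were called higher and 4 lower, against 15.3% and 3.12%.

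Matrix genes were called higher in the Foxn11089/1089 library for 5 of 11 tested and lower for 0, and in the library labelled Tbx1neo2/neo2 for 3 and 1. Sparc, a matricellular protein, was at 43.5 CPM in the control, 104 in the library labelled Tbx1neo2/neo2 and 236 in the Foxn11089/1089 library (log2 ratios 1.26 and 2.44), in 12, 28 and 55 macrophages. The value of Sparc in the library labelled Tbx1neo2/neo2 changed sign as a mean over cells (-0.10) and between 2000 and 30000 UMIs (-0.06). Fn1, fibronectin, was at 28.5, 77.8 and 103 CPM (1.45 and 1.86, or 0.45 and 0.63 at the lowest alternative). Mesenchymal RNA moved in the same barcodes of the Foxn11089/1089 library: 7 of 10 mesenchymal markers were called higher there and 0 lower, among them Col3a1 at 189, 182 and 423 CPM and Prrx1 at 5.02, 12.5 and 88.7 CPM. Its part in the matrix values was not tested. In the library labelled Tbx1neo2/neo2, 6 of 9 epithelial markers were called higher, and 99.0% of the 755 CPM of Krt5 came from its deepest macrophage, against 31.8 CPM in the control and 27.6 CPM in the Foxn11089/1089 library.

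Growth factor and early response lists gave few calls. Of growth factors and cytokines, 0 of 12 tested were called higher and 1 lower in the library labelled Tbx1neo2/neo2, and 1 higher and 1 lower in the Foxn11089/1089 library. Igf1, insulin-like growth factor 1, was at 428 CPM in the control, 241 in the library labelled Tbx1neo2/neo2 and 462 in the Foxn11089/1089 library, and Tgfb1 at 202, 174 and 138 CPM. Early response genes gave 0 of 14 higher and 1 lower in the library labelled Tbx1neo2/neo2, where Junb stood at 246 CPM against 527 in the control and 318 in the Foxn11089/1089 library (-1.10 and -0.73), while Fos was at 763, 874 and 1018 CPM. Of 7 tested monocyte genes 2 were called higher and 1 lower in the library labelled Tbx1neo2/neo2, and 2 of 6 higher in the Foxn11089/1089 library. The medians were 0.48 and 0.25. Microglia-type genes were called higher for 4 of 11 and 1 of 11, against 14.9% and 15.3% of all tested genes. Their medians were 0.92 and 0.10, against 0.32 and 0.29 for all tested genes. This list summed to 1276, 2371 and 1534 CPM in macrophages, and to 260, 931 and 630 CPM in all other kept barcodes.

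**Figure D4:**
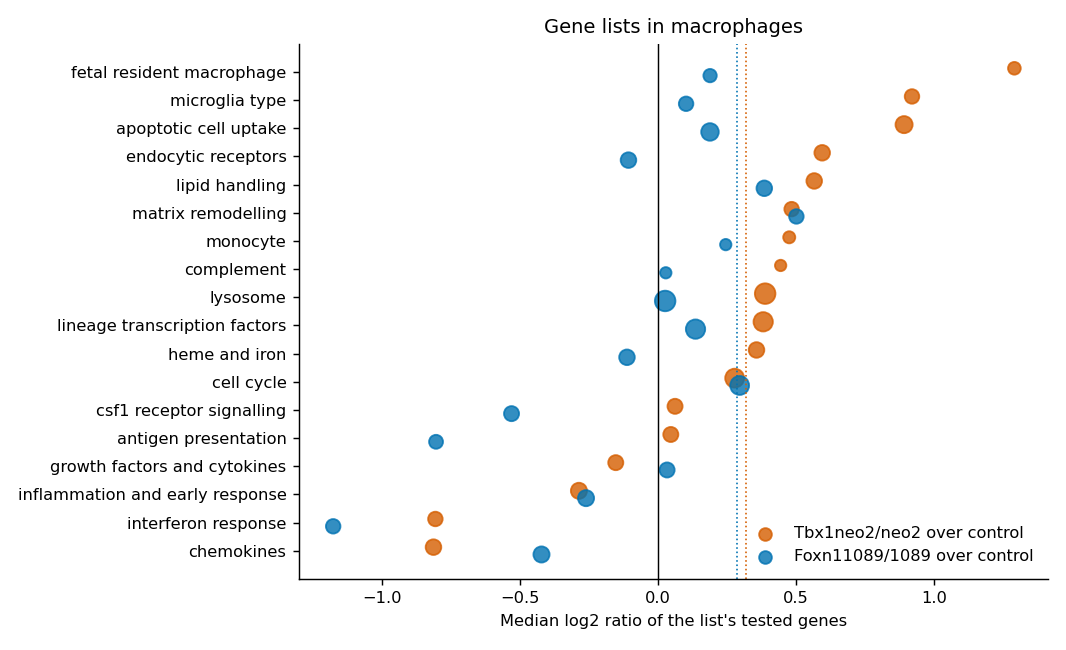
Median log2 ratio over the control of 18 gene lists in macrophages, for Tbx1neo2/neo2 and Foxn11089/1089. Larger circles have more tested genes and the dotted lines are the medians of all tested genes (0.32 and 0.29). Fetal resident (1.29), microglia type (0.92) and apoptotic uptake (0.89) lists stand to the right for Tbx1neo2/neo2. Interferon response stands to the left for both (-0.81 and -1.18), and medians between 0 and the dotted lines turned negative under median-of-ratios scaling.

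Shares of macrophages with a UMI were compared after each was thinned at random to 1000 UMIs, which left out 15, 10 and 22 shallower macrophages and kept 67, 83 and 118. The kept macrophages had median depths of 9143, 18090 and 16864 UMIs before thinning. Epithelial barcodes had 15833, 40726 and 19670 and were thinned alike. They should lack genes such as Trem2 and Lyve1, but not Isg15 or cell cycle genes. Trem2 was detected in 25.4% of control macrophages (exact interval 15.5 to 37.5), 47.0% of the library labelled Tbx1neo2/neo2 (35.9 to 58.3) and 34.8% of the Foxn11089/1089 library (26.2 to 44.1), and in 0 epithelial barcodes of any library. Unthinned shares were 53.7%, 75.3% and 71.4%. Dab2 was detected in 19.4% (10.8 to 30.9), 38.6% (28.1 to 49.9) and 28.8% (20.9 to 37.9), and in at most 0.322% of epithelial barcodes, with unthinned counts of 41 of 82, 69 of 93 and 96 of 140. Thinned to 500 UMIs, Dab2 was found in 14.6%, 24.7% and 13.6%.

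Hmox1 was found in more macrophages of both libraries labelled as mutants, at 7.46% (2.47 to 16.6), 22.9% (14.4 to 33.4) and 22.0% (14.9 to 30.6) after thinning, against 0.281%, 0.645% and 0.602% of epithelial barcodes, and in 22 of 82, 56 of 93 and 84 of 140 before it. Thinned to 500 UMIs, which keeps every macrophage, the shares were 6.10%, 6.45% and 23.6%, so the higher share in the library labelled Tbx1neo2/neo2 was not seen at that depth. Lyve1 was detected in 5.97% (1.65 to 14.6), 9.64% (4.25 to 18.1) and 0.847% (0.0214 to 4.63), and in 0 epithelial barcodes. Timd4, a receptor for phosphatidylserine, was found in 0 of 67, 0 of 83 and 3 of 118 thinned macrophages, but in 6 of 82, 14 of 93 and 14 of 140 without thinning, so the depth of 1000 UMIs was too low for it. Ccr2, the receptor of recruited monocytes, was found in 0, 1 and 0 thinned macrophages and in 3, 7 and 5 without thinning. Isg15 was found in 8.96% (3.36 to 18.5), 1.21% (0.0305 to 6.53) and 1.69% (0.206 to 5.99), with 3.13%, 0.967% and 0.209% in epithelial barcodes.

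Cell cycle genes gave no order of the libraries. At least 2 of 20 such genes were detected in 40.3%, 38.6% and 39.0% of thinned macrophages, below the 56.2%, 64.4% and 50.3% of epithelial barcodes. Mki67, a proliferation marker, was at 55.2 CPM in the control, 186 in the library labelled Tbx1neo2/neo2 and 182 in the Foxn11089/1089 library (1.75 and 1.72). In the library labelled Tbx1neo2/neo2 only 20 macrophages held it, and the log2 ratio was -0.11 without barcodes holding markers of another class and -2.69 between 2000 and 30000 UMIs. Over the list, 2 and 3 of 20 genes were called higher and 0 lower in either comparison.

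**Figure D5:**
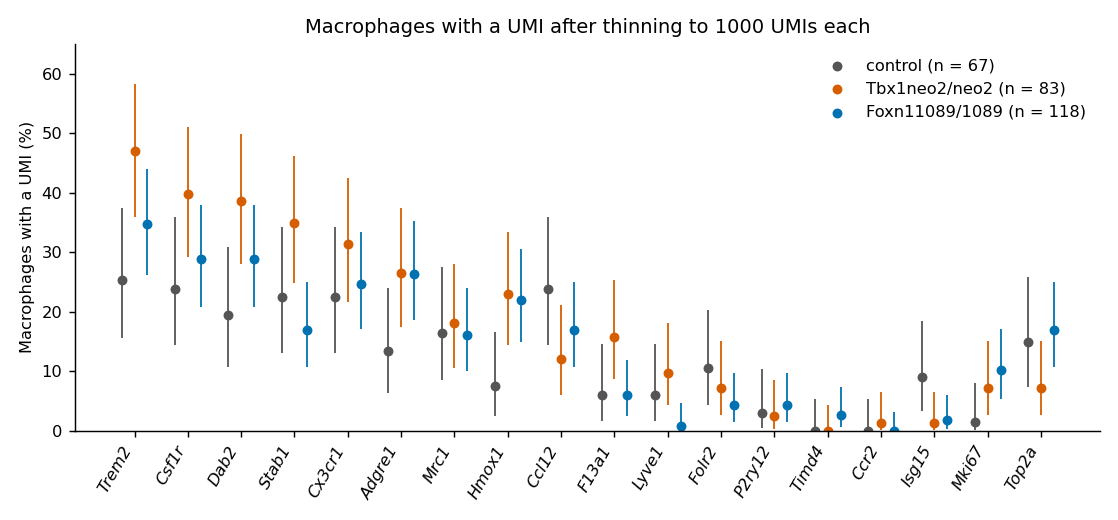
Percent of macrophages with a UMI of each of 18 genes after thinning to 1000 UMIs, with exact 95% intervals (counting error only), in the control (n = 67), Tbx1neo2/neo2 (n = 83) and Foxn11089/1089 (n = 118) libraries. Trem2, Dab2, Adgre1 and Hmox1 are lowest in the control, at 25.4%, 19.4%, 13.4% and 7.46%, and most intervals of neighbouring libraries overlap.

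Detection of resident markers in the same cell was counted in macrophages of at least 2000 UMIs. Lyve1 was found in 9 of 49 in the control, 18 of 68 in the library labelled Tbx1neo2/neo2 and 9 of 96 in the Foxn11089/1089 library. Of those with Lyve1, 8, 16 and 9 also held Mrc1, 3, 16 and 7 held F13a1, and 4, 16 and 6 held Folr2. Among those without Lyve1, Mrc1 was found in 23 of 40, 29 of 50 and 58 of 87, F13a1 in 10 of 40, 19 of 50 and 19 of 87, and Folr2 in 13 of 40, 14 of 50 and 24 of 87. Macrophages with Lyve1 were the deeper ones, with medians of 12305, 30774 and 24031 UMIs against 10524, 20644 and 19919, so depth moved with this pattern and its part was not tested. Mrc1 and Cx3cr1, which mark different resident populations in some adult organs, were detected together in 29 of 49, 40 of 68 and 61 of 96, and neither was detected in 8, 14 and 18.

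Genes with the largest differences among those higher in macrophages than elsewhere were picked by rank from genes with at least 100 UMIs. Fchsd2, an endocytic adaptor, was called higher in both comparisons, at 20.1 CPM in the control, 97.5 in the library labelled Tbx1neo2/neo2 and 103 in the Foxn11089/1089 library (2.28 and 2.36), while all other kept barcodes were at 1.42 and 1.01. Slc6a6, the taurine transporter, was at 31.8, 127 and 87.0 CPM (2.001 and 1.45), with 1.60 and 0.98 elsewhere. Tmsb4x, thymosin beta 4, which binds actin monomers, was at 9023, 23105 and 22883 CPM (1.36 and 1.34), and all other kept barcodes changed by 1.70 and 1.99. Rgs1, a regulator of chemokine receptor signalling, was at 181, 19.2 and 123 CPM (-3.23 and -0.55), with -1.49 and -1.41 elsewhere. Dnase1l3, a nuclease that digests DNA of dying cells, was at 134, 27.4 and 38.2 CPM (-2.29 and -1.81), with -2.30 and -6.46 elsewhere. Nupr1, a stress-induced chromatin protein, was at 116, 39.4 and 25.9 CPM (-1.55 and -2.16), with 0.16 and -1.44 elsewhere. Bcl2a1b, an antiapoptotic gene with near-identical copies whose reads may be split, was at 552, 126 and 313 CPM (-2.13 and -0.82).

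Some of the lowest log2 ratios were as low in all other kept barcodes. Gm42418, which takes reads of ribosomal RNA, was at 7867 CPM in control macrophages, 278 in the library labelled Tbx1neo2/neo2 and 164 in the Foxn11089/1089 library (-4.82 and -5.58), and its log2 ratios in all other kept barcodes were -4.72 and -5.15. AY036118 at the same locus was at 564, 18.3 and 18.2 CPM, and Lars2 at 261, 16.8 and 14.4 CPM. The histone gene Hist1h1b, whose RNA mostly lacks a poly(A) tail, was at 454, 37.0 and 70.0 CPM (-3.62 and -2.70), with -3.62 and -3.33 elsewhere. A difference between libraries and one between genotypes cannot be told apart with 1 library each.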

How the data were processed

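Droplet libraries of 3' gene expression were made from fetal thymic lobes, 1 library per genotype. The deposited values are raw UMI counts per gene and barcode, which the authors made with Cell Ranger 3.0.0 on mm10 for 27998 genes. The authors analysed them with Seurat, which was not used here. No cell annotation was used.

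Barcodes were kept, and macrophages chosen, by the limits given with the results. No doublet caller was run. Barcodes with at least 3 markers of another class, dendritic markers not included, were counted, and left out in an alternative. UMIs were summed over the macrophages of a library and scaled to CPM. Intervals were exact (Clopper-Pearson for shares, Poisson for sums, conditional binomial for ratios) at 95%. A sum of 0 was set to a floor of 3 counts, and list medians used 0.5 added to each sum. In the ranking over all other kept barcodes, their sums below 3 counts were set to that floor too. Thinning used seed 1. The calculation was tested on simulated data. Python 3.11.15, numpy 2.4.6, scipy 1.17.1, pandas 2.3.3, matplotlib 3.10.9, R 4.3.3 and edgeR 4.0.16 (TMM factors only) were used.

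The macrophages and the 18 function and 11 marker lists were chosen with earlier results of these data known, and 4 list genes had no unique symbol in the files. Named genes were 2 to 5 or more of each list by level or ratio, the 10 highest and 10 lowest log2 ratios among genes with at least 100 UMIs and at least 2 times the level of other kept barcodes, the 5 highest and lowest of the other genes, and the 20 genes with the highest ratio over other kept barcodes. Genes under these rules that are not mentioned are omitted for length. Alternatives covered depth, mitochondrial limit, rule, scaling, gene minimum and mixed barcodes. Leaving out low-density, deepest or top macrophages, applying the rule after thinning, the window of 2000 to 30000 UMIs and totals without Gm42418, AY036118 and Lars2 were chosen after seeing the data. Results for some genes are not reported here.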

Additional observations from a re-analysis of the deposited data

How the results depend on the processing

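No paired analysis was possible because each genotype had 1 library. The macrophage share, 1.48%, 1.81% and 1.51% in the control, Tbx1neo2/neo2 and Foxn11089/1089 libraries, was 0.991%, 1.40% and 0.984% with 6 of 8 rule genes, 0.865%, 1.38% and 1.05% with 10 C1q UMIs, and 1.03%, 1.42% and 0.992% with the rule applied after thinning. It was 0.988% in the control and 1.23% in Foxn11089/1089 with at least 2000 UMIs, and 1.29% in Tbx1neo2/neo2 and 0.973% in Foxn11089/1089 without barcodes holding markers of another class. The Tbx1neo2/neo2 ratio to the control was 1.92 with at least 2000 UMIs. Calls higher and lower were 528 and 560 (Tbx1neo2/neo2) and 659 and 544 (Foxn11089/1089) with median-of-ratios scaling, and 612 and 467, and 731 and 488, with TMM. Without barcodes holding markers of another class, 607 were higher in Tbx1neo2/neo2, and 410 were higher and 157 lower in Foxn11089/1089. Between 2000 and 30000 UMIs, 588 were higher and 443 lower in Tbx1neo2/neo2 and 648 higher in Foxn11089/1089. A gene minimum of 100 UMIs, which tests fewer genes, gave 435 and 106, and 543 and 124, and no minimum gave 332 lower in Tbx1neo2/neo2. Among called genes, log2 ratios changed sign as a mean over cells for Cxcl16 (0.32) and Sparc (-0.10) in Tbx1neo2/neo2 and Irf7 (0.19) in Foxn11089/1089. They did so without barcodes holding markers of another class for Clec4n (0.12) and Mki67 (-0.11) in Tbx1neo2/neo2 and Id3 (-0.069) in Foxn11089/1089, without the deepest macrophage for Krt5 (-1.90), without the top macrophage for H2-Ab1 (-0.064), and between 2000 and 30000 UMIs for Ccl4 (0.0051), Sparc (-0.064) and Mki67 (-2.69), all in Tbx1neo2/neo2. Apart from the depth window, mixed barcodes and gene minimum, whose construction removes cells or genes, the cause was not tested. Of 3364 values for named genes, 2762 stayed within the counting interval of the main ratio and 591 moved out of it. The other 11 changed sign, counted only for genes called in the main comparison. Sign changes of other genes were not counted apart, and a value within the interval could still gain or lose a call. Those within it include 185, 217 and 217 values at gene minimums of 100, 10 and 1 UMI, which cannot change a ratio.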
